A study of Rattus norvegicus with 6 samples.

Results

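The genes described here encode the MHC class II molecules of the rat and parts of the machinery that prepares peptides for display to T cells. They are the 10 rows of the deposited count table named RT1-Da, RT1-Db1, RT1-Ba, RT1-Bb, RT1-DMb, Cd74, Ciita, B2m, Tap1 and Psmb8. They were taken by name out of 32883 rows with a gene name, with earlier results of these data known. No symbol among them was repeated in the table. All 10 passed edgeR's filter on low counts, as did 13766 genes in all. The hearts came from male wild-type Sprague-Dawley rats, an outbred strain, aged 8 weeks. In the ISO group 3 rats were given ISO under the skin at 1.5 mg/kg per day for 7 days, and in the saline group 3 rats were given the same volume of saline over the same days. ISO is taken to be isoproterenol, a beta-adrenergic agonist that is used to produce cardiac hypertrophy and fibrosis, which is the subject of the series. The model has no genetic change, and the sources used here do not give the RT1 genotype of the animals. The series description gives 3 rats a group and each library is taken to be 1 of them; the libraries held 14880391 to 17299589 counts.

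MHC class II molecules are pairs of an alpha and a beta chain that carry peptides taken up from outside the cell and show them to CD4+ T cells. Macrophages, dendritic cells and B cells are the main cells that make them, and in the heart resident macrophages do so. The chains assemble with the invariant chain Cd74, lysosomal proteases cut the invariant chain and the antigen, and the DM molecule exchanges the remaining fragment for a peptide. The transactivator Ciita switches the class II genes on through a promoter module of X and Y boxes. MHC class I molecules, which need B2m as their light chain, show peptides cut by the proteasome and pumped into the endoplasmic reticulum by Tap1 and Tap2. Rat MHC genes bear the prefix RT1, the D locus being the counterpart of human HLA-DR and the B locus that of HLA-DQ.

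The promoters of the 4 chains that make up the D and B molecules are shown because these chains share one known switch yet gave unlike values, and that of Tap1 is shown as a class I pathway gene. RefSeq promoter windows (build GRCr8) matched 8 of the 10 genes. Each line runs 5' to 3' along the gene from 160 bases before the annotated start to 20 bases after it. Capitals mark the letters searched on both strands, namely GATTGG for the Y box, GCAACNG for the X box and, for the motif of interferon regulatory factors, GAAA repeated after any 2 bases. On the opposite strand these read CCAATC for the Y box and TTTC repeated for the interferon motif. The 3 motifs did not overlap in these windows. The sequence is that of the reference strain, not of the animals studied.
RT1-Da (chr20:4515255-4515434, plus strand): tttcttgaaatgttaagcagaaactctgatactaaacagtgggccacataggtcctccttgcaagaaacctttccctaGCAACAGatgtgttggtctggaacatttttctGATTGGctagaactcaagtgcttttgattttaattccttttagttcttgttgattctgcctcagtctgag
RT1-Db1 (chr20:4560143-4560322, minus strand): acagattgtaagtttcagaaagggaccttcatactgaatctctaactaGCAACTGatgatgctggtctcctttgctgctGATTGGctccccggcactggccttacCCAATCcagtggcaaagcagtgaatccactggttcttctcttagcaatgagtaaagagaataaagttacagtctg
RT1-Ba (chr20:4576897-4577076, plus strand): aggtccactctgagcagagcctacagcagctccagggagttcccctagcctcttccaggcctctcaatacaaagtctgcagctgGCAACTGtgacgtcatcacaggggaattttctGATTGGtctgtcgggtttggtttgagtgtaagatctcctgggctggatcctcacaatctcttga
RT1-Bb (chr20:4604099-4604278, minus strand): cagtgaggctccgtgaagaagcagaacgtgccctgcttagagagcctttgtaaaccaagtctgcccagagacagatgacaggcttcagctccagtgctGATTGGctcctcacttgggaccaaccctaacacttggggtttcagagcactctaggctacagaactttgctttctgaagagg
Tap1 (chr20:4668524-4668703, minus strand): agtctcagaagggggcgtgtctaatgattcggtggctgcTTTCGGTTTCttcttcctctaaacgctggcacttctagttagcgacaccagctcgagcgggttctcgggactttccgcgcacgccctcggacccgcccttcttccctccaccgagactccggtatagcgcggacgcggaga

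GATTGG was found in 5 of the 8 windows, those of RT1-Da, RT1-Db1, RT1-Ba, RT1-Bb and B2m, and in 10.5% of all 33469 promoter windows of the same length. GCAACNG was found in 3 of the 8, those of RT1-Da, RT1-Db1 and RT1-Ba, and in 7.8% of all. In RT1-Da the X box letters began at position -82 and the Y box letters at -50, and in RT1-Ba they began at -76 and -44. The interferon regulatory factor motif was found in B2m, Tap1 and Psmb8 and in 2.38% of all windows. RT1-Da and RT1-Ba therefore both held the X and Y letters, although their counts in ISO hearts lay on opposite sides of those in saline hearts. These matches describe letters and not bound sites.

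None of the 10 genes differed between ISO and saline hearts at an adjusted p under 0.05 by edgeR's quasi-likelihood test, which called 2.97% of all tested genes. The fold changes of 7 genes lay above 0 and those of 3 below, with a median log2 fold change of 0.25 against 0.02 over all tested genes. An unadjusted p under 0.05 was reached by RT1-Da, RT1-Ba and Ciita, 3 of 10, whereas 22.9% of all tested genes reached it. Groups did not overlap for RT1-Da and RT1-Ba, 2 of 10, against 28.8% of all tested genes, which is no larger a share (14.1% of all tested genes lay wholly higher in ISO and 14.6% wholly lower). DESeq2 called RT1-Da and RT1-Ba (9.73% of all genes with an adjusted p) and voom called none (2.39% of all). The series' thresholds, a log2 change beyond 0.5 in either direction and a raw p below 0.05, applied here to the edgeR values, took RT1-Da, RT1-Ba and Ciita, and 13.2% of all tested genes.

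**Figure D1:**
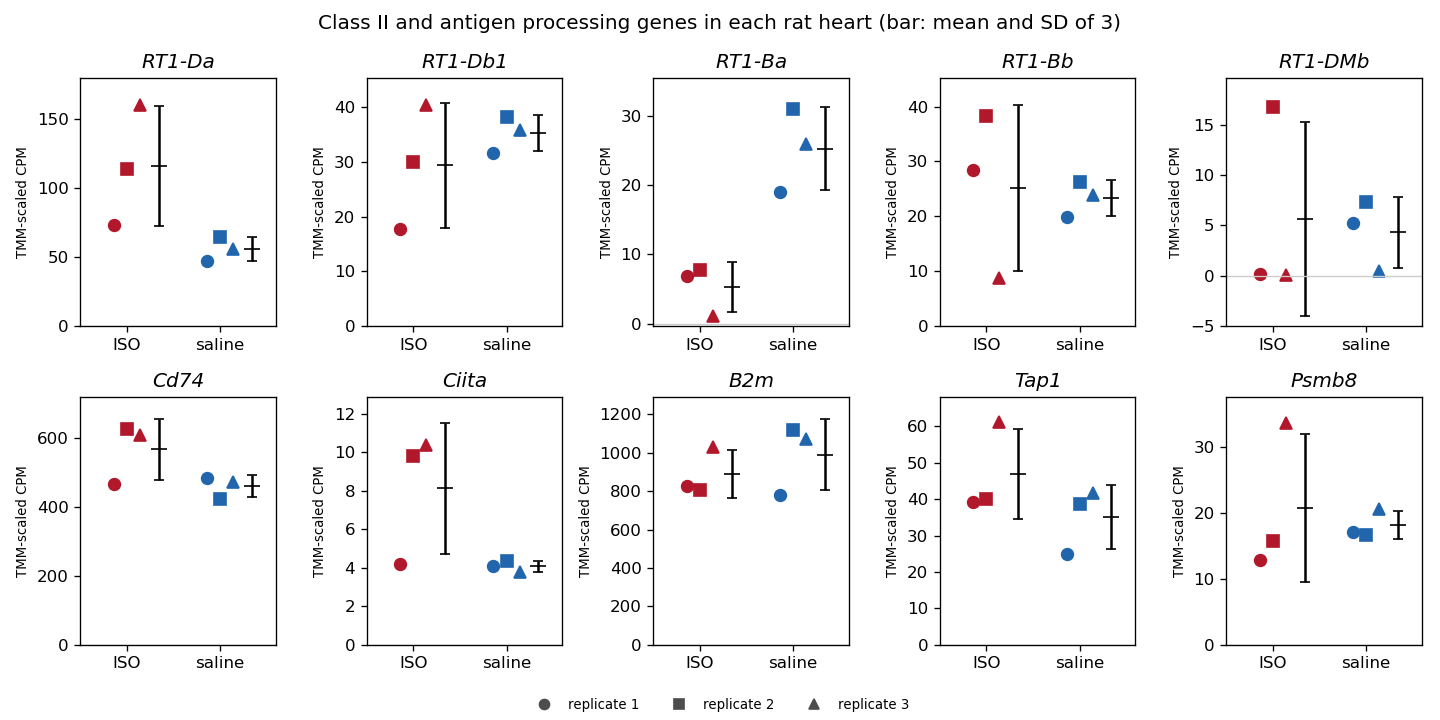
Level of each of the 10 genes in each heart, in TMM-scaled CPM on a linear axis, with ISO at the left and saline at the right of each panel; markers are single rats and the bar gives the mean and SD of 3. RT1-Da lies higher and RT1-Ba lower in every ISO heart than in every saline heart, and the other 8 genes overlap.

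Levels below are CPM, read counts relative to library size, scaled by the trimmed mean of M values (TMM), and each fold change is ISO over saline on the log2 scale with its standard error. Levels of different genes are not compared with each other, because transcript lengths were not used. RT1-Da, the alpha chain of the D molecule (ENSRNOG00000032844), stood at 73.4, 114 and 161 CPM in ISO replicates 1 to 3, against 47.3, 64.4 and 56.1 CPM in saline replicates 1 to 3. Every ISO heart lay above every saline heart, with ISO replicate 3 the highest. The means were 116 ± 43.7 CPM in ISO hearts against 55.9 ± 8.54 CPM in saline hearts (SD, n = 3 each), a log2 fold change of 1.05 (SE 0.26) with an edgeR adjusted p of 0.0681. Its partner RT1-Db1, the beta chain of the D molecule (ENSRNOG00000033215), stood at 17.7, 30.0 and 40.4 CPM in ISO and at 31.7, 38.1 and 35.9 CPM in saline. The groups overlapped, and ISO replicate 1 was lowest and ISO replicate 3 highest of the 6 hearts. Its log2 fold change was -0.26 (SE 0.26, edgeR adjusted p = 0.592), and ranged from -0.56 without ISO replicate 3 to -0.0084 without ISO replicate 1.

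RT1-Ba, the alpha chain of the B molecule (ENSRNOG00000000451), had 111, 125 and 20 reads in ISO replicates 1 to 3, against 279, 494 and 409 reads in saline. In CPM these were 6.95, 7.80 and 1.17 in ISO, against 19.0, 30.9 and 25.8 in saline. All ISO hearts were below all saline hearts and ISO replicate 3 was far below the other ISO hearts. The means were 5.31 ± 3.61 CPM in ISO hearts against 25.2 ± 5.97 CPM in saline hearts, a log2 fold change of -2.25 (SE 0.53) with an edgeR adjusted p of 0.0614. Without ISO replicate 3 the difference was smaller, -1.77, but passed the threshold (edgeR adjusted p = 0.0141). Across the 16 alternative fits with a value the edgeR, DESeq2 and voom adjusted p of RT1-Ba ranged from 0.0141 to 0.187, and that of RT1-Da from 9.14e-04 to 0.205.

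RT1-Bb, the beta chain of the B molecule (ENSRNOG00000032708), stood at 28.4, 38.4 and 8.75 CPM in ISO and at 19.9, 26.3 and 23.9 CPM in saline. ISO replicates 1 and 2 were above all saline hearts and ISO replicate 3 below all of them. Its log2 fold change was 0.10 (SE 0.43, edgeR adjusted p = 0.914). ISO replicate 3 was thus lowest of the 6 hearts for both chains of the B molecule, while it was highest for both chains of the D molecule.

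The ratio of alpha to beta chain reads within a heart does not depend on library scaling, and gene length cancels when hearts are compared. RT1-Da reads per RT1-Db1 read were 4.15, 3.81 and 3.97 in ISO replicates 1 to 3 and 1.49, 1.69 and 1.56 in saline replicates 1 to 3. The ratio varied little within a group, with SDs of 0.06 and 0.09 on the log2 scale in ISO and saline, and differed between them by 1.33. RT1-Ba reads per RT1-Bb read were 0.245, 0.203 and 0.133 in ISO and 0.955, 1.18 and 1.08 in saline, a difference of -2.50 on the log2 scale. Both ratios separated the groups without overlap, each with an exact two-sided permutation p of 0.1, the smallest that 3 hearts against 3 allow, and 0.3 after Benjamini-Hochberg adjustment over the 6 ratios computed. These ratios were chosen after the counts were seen. Without each heart in turn the D ratio differed by 1.29 to 1.38 and the B ratio by -2.70 to -2.26. RT1 genes have near-identical copies and alleles, so their reads may have been split or lost in counting, and these values are uncertain to that extent, which was not tested.

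**Figure D2:**
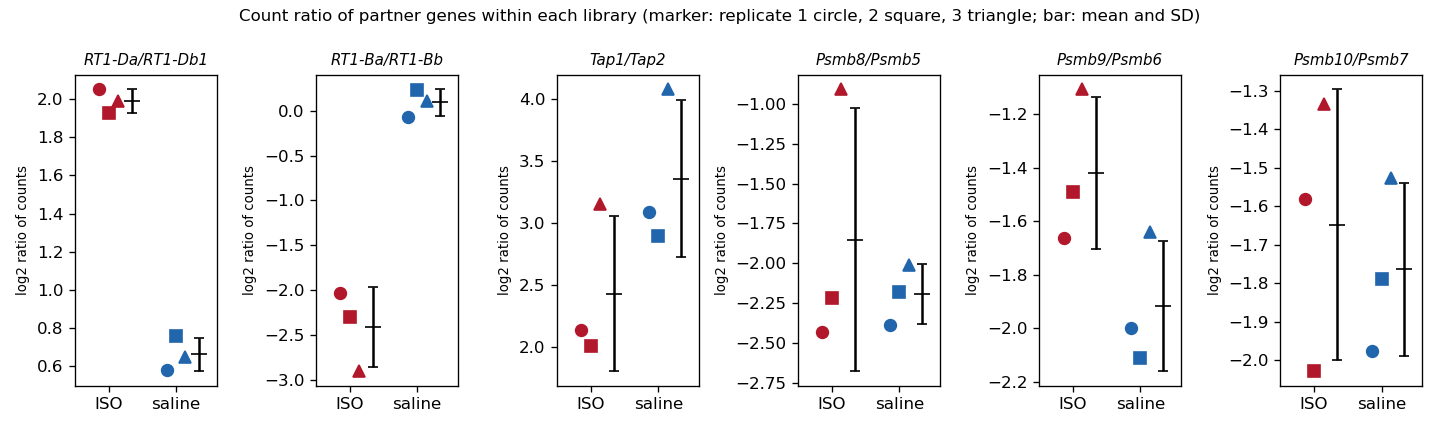
Log2 ratio of read counts of 2 partner genes in each heart, ISO at the left and saline at the right, with single rats as markers and bars for the mean and SD of 3. The RT1-Da to RT1-Db1 ratio is higher and the RT1-Ba to RT1-Bb ratio lower in all ISO hearts, while the 4 other ratios overlap between groups.

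RT1-DMb, the beta chain of the DM peptide exchanger (ENSRNOG00000049491), had many reads in some hearts and few in others of the same group. Here too reads of RT1 alleles or copies may have been split or lost in counting, which was not tested. It had 2, 269 and 1 reads in ISO replicates 1 to 3, against 77, 117 and 7 reads in saline replicates 1 to 3. ISO replicate 2 held 134 times the level of ISO replicate 1 (95% exact interval 36.7 to 1111) and 288 times that of ISO replicate 3 (51.2 to 11400). It also held 37.9 times the level of saline replicate 3 (18.2 to 95.3), with intervals that cover counting error only. The groups overlapped, averaging 5.65 ± 9.63 CPM in ISO hearts against 4.33 ± 3.53 CPM in saline hearts, with a log2 fold change of 0.38 with an SE of 1.48 (edgeR adjusted p = 0.908). The sign of that value rested on ISO replicate 2, without which it was -5.46 (edgeR adjusted p = 0.061). The alpha chain gene RT1-DMa had 7, 7 and 2 reads in ISO hearts and 0 reads in each saline heart, too few to be tested. In these libraries 3 reads, taken as the limit of detection, equal 0.175 to 0.204 CPM.

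A span of at least 8-fold between the highest and the lowest heart was seen in 2 of the 10 genes, RT1-Ba and RT1-DMb. Of 12109 tested genes with at least 50 reads in some heart, 2.39% spanned as much. Among the 31 rows whose symbol begins with RT1-, none beside these 2 did so. Because the 10 genes were chosen with earlier results of these data known, their share is no independent support for such variation. The variation of RT1-DMb crossed the groups. RT1-Ba was lower in every ISO heart than in every saline heart. It also spanned 6.68-fold within ISO, where replicate 3 was lowest, and 1.63-fold within saline.

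Cd74, the invariant chain that guides class II molecules to the lysosome (ENSRNOG00000018735), stood at 465, 624 and 608 CPM in ISO and at 484, 422 and 473 CPM in saline. ISO replicates 2 and 3 lay above all saline hearts and ISO replicate 1 lay among them. Its log2 fold change was 0.30 (SE 0.15, edgeR adjusted p = 0.258). Set against Cd74 in the same heart, RT1-Da had 15.8, 18.3 and 26.4 reads per 100 Cd74 reads in ISO and 9.78, 15.2 and 11.9 in saline. On this scale, too, all ISO hearts lay above all saline hearts. RT1-Ba had 1.50, 1.25 and 0.192 reads per 100 Cd74 reads in ISO and 3.93, 7.31 and 5.47 in saline, again without overlap. RT1-Db1 had 3.80, 4.81 and 6.65 reads per 100 Cd74 reads in ISO and 6.54, 9.03 and 7.59 in saline, and RT1-Bb had 6.10, 6.15 and 1.44 in ISO and 4.11, 6.22 and 5.07 in saline. Both overlapped, as did RT1-DMb, at 0.0096 to 2.69 in ISO and 0.0936 to 1.73 in saline.

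Ciita, the transactivator of the class II genes (ENSRNOG00000002659), stood at 4.20, 9.79 and 10.4 CPM in ISO and at 4.09, 4.38 and 3.79 CPM in saline. ISO replicates 2 and 3 held more than any saline heart, and ISO replicate 1 lay within the saline range. The log2 fold change was 0.99 (SE 0.34, edgeR adjusted p = 0.133), and 1.30 without ISO replicate 1 (edgeR adjusted p = 0.0617). The hearts with more Ciita were also those with more Cd74 and RT1-Da, but RT1-Ba was lowest in one of them.

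Of the class I pathway genes, B2m, the light chain of class I molecules (ENSRNOG00000017123), stood at 828, 804 and 1032 CPM in ISO and at 777, 1118 and 1072 CPM in saline. The groups overlapped, with a log2 fold change of -0.16 with an SE of 0.18 (edgeR adjusted p = 0.648). Tap1, a subunit of the peptide pump (ENSRNOG00000000457), stood at 39.3, 40.2 and 61.2 CPM in ISO and at 24.9, 38.7 and 41.6 CPM in saline. ISO replicate 3 was the highest and saline replicate 1 the lowest, with a log2 fold change of 0.42 with an SE of 0.23 (edgeR adjusted p = 0.321). Psmb8, the immunoproteasome subunit that takes the place of Psmb5 (ENSRNOG00000000456), stood at 12.8, 15.8 and 33.7 CPM in ISO and at 17.1, 16.8 and 20.6 CPM in saline. ISO replicates 1 and 2 lay below every saline heart and ISO replicate 3 above them all. Its log2 fold change, 0.20 with an SE of 0.33 (edgeR adjusted p = 0.768), became -0.34 without ISO replicate 3.

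The wider pathway was taken from 9 lists, which also hold the 10 genes. Counts for these lists and for the cell markers are to be set against the shares over all tested genes. EdgeR called 2.97% of those, voom called 2.39%, and 22.9% had an unadjusted p under 0.05. DESeq2 called 9.73% of genes with an adjusted p. The 8 tested class II molecules are 6 of the 10 genes with RT1-DOa and RT1-DOb, and their counts mostly repeat those above. EdgeR called none, 3 had an unadjusted p under 0.05 (RT1-Da, RT1-Ba and RT1-DOb), DESeq2 called RT1-Da and RT1-Ba and voom none, and the median log2 fold change was 0.23. RT1-DOa and RT1-DOb, the chains of the DO molecule that holds DM in check, gave 0.17 (SE 0.38) and 1.36 (SE 0.52), on at most 37 reads per heart. None of 11 tested class II regulators, Ciita included, was called by edgeR, 3 had an unadjusted p under 0.05, DESeq2 called 2 and voom none, with a median of 0.21. Among these Rfx5, a subunit of the factor that binds the X box, gave 0.18 (SE 0.12), and Nfyc, a subunit of the factor that binds the Y box, gave -0.17 (SE 0.10). The myeloid factor genes Spi1 and Irf8, named after their values were seen, gave 0.76 and 0.60 (SE 0.19 and 0.16), with edgeR adjusted p of 0.0694 and 0.0816 and with every ISO heart above every saline heart.

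Genes of lysosomal processing, which cut antigen and invariant chain, lay above 0 in 8 of 8 tested members, with a median of 0.47. EdgeR called none of them, 6 had an unadjusted p under 0.05 against 22.9% of all tested genes, DESeq2 called 2 and voom none. All ISO hearts exceeded all saline hearts in 6 of the 8, against 14.1% of all tested genes. The list summed to 1997, 1849 and 2798 CPM in ISO replicates 1 to 3 and to 1597 to 1661 CPM in saline, with ISO replicate 3 apart. Macrophage markers were also higher, 9 of 11 wholly so in ISO. Their sum, though not every single marker, was highest in ISO replicate 3 as well. Their part in the result was not tested. Ctsb, a cathepsin protease, averaged 678 ± 270 CPM in ISO hearts against 402 ± 10.4 CPM in saline hearts, a log2 fold change of 0.75 with an SE of 0.25 (edgeR adjusted p = 0.129, DESeq2 adjusted p = 0.0174). It was 0.40 without ISO replicate 3, and 0.97 and called without ISO replicate 2 (edgeR adjusted p = 0.0381). Ctsd, another cathepsin, gave 0.37 (SE 0.13, edgeR adjusted p = 0.153). Ctss, the cathepsin that trims the invariant chain, was named after its values were seen and stood at 38.7, 41.7 and 76.9 CPM in ISO, against 19.1, 36.0 and 23.0 CPM in saline. Its log2 fold change was 1.01 (SE 0.31, edgeR adjusted p = 0.109, DESeq2 adjusted p = 0.0116), and 0.63 without ISO replicate 3.

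**Figure D3:**
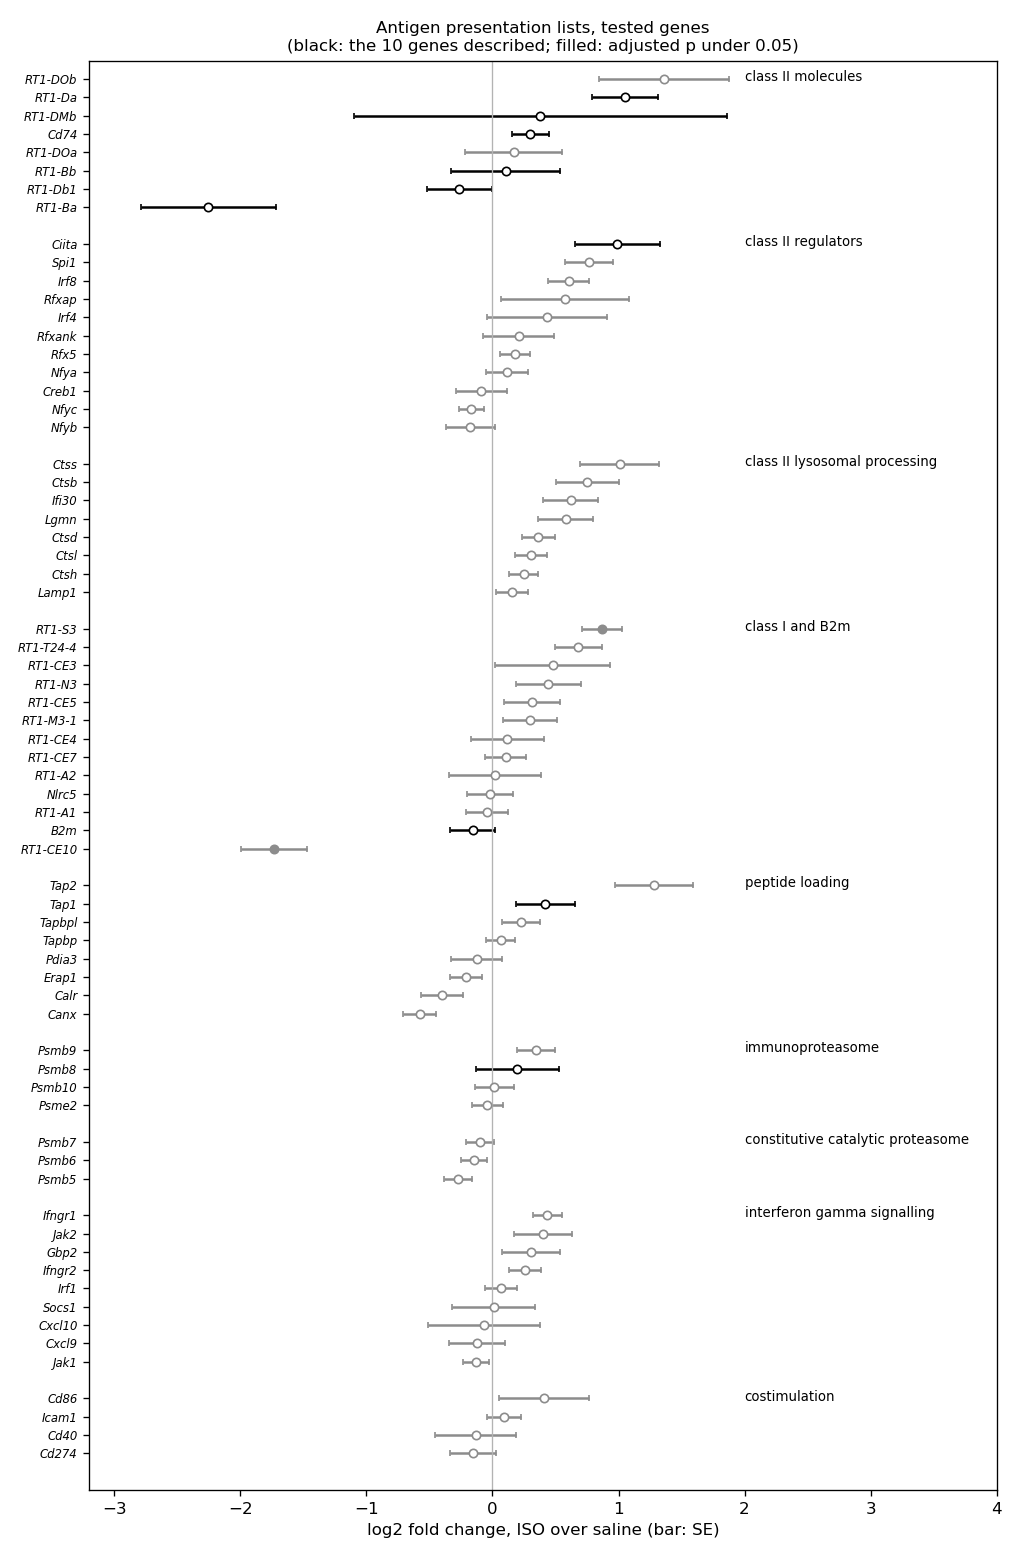
Log2 fold change of ISO over saline for the tested genes of the 9 lists that are reported here, with bars for the standard error; black points are the 10 genes described and filled points passed an adjusted p of 0.05 by edgeR. Only RT1-S3 and RT1-CE10 are filled, and RT1-Ba lies furthest to the left at -2.25.

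In the list of class I genes with B2m, 1 of 13 tested members was higher and 1 lower in ISO by edgeR, against 1.47% and 1.50% of all tested genes. DESeq2 called 3 and voom 2, 3 had an unadjusted p under 0.05, and the median was 0.12. RT1-S3, a class I gene (ENSRNOG00000000777), rose to 155, 186 and 203 CPM in ISO, against 80.6, 106 and 111 CPM in saline. Its log2 fold change was 0.87 (SE 0.16, edgeR adjusted p = 0.0317). RT1-CE10, another class I gene (ENSRNOG00000050210), fell to 5.32, 3.18 and 6.83 CPM in ISO, against 15.8, 16.3 and 19.0 CPM in saline, with a log2 fold change of -1.73 with an SE of 0.26 (edgeR adjusted p = 0.0192). Neither call held without ISO replicate 1 or without any one of the saline hearts (edgeR adjusted p = 0.0665 to 0.108 for RT1-S3 and 0.0699 to 0.0984 for RT1-CE10), and that of RT1-S3 was also lost without ISO replicate 3 (edgeR adjusted p = 0.0541). Over all genes edgeR's 409 calls fell to 23 without ISO replicate 1 and to 12 to 26 without a saline heart, so such losses were general. In those fits the log2 fold changes were 0.74 to 0.96 for RT1-S3 and -1.79 to -1.65 for RT1-CE10. Both were lost with the replicate number as a block (edgeR adjusted p = 0.0555 for RT1-S3 and 0.0529 for RT1-CE10). That fit called 28 genes in all, and its log2 fold changes were 0.87 for RT1-S3 and -1.78 for RT1-CE10. Nlrc5, the transactivator of class I genes, named after its values were seen, gave -0.02 (SE 0.18) and was above 0 without scaling.

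Peptide loading genes showed no common direction. Of 8 tested members 4 lay above 0, the median was -0.03, edgeR called none, 3 had an unadjusted p under 0.05, DESeq2 called 2 and voom none. Tap2, the partner of Tap1 in the pump, named after its values were seen, stood at 8.96, 9.98 and 6.88 CPM in ISO, against 2.93, 5.19 and 2.46 CPM in saline. All ISO hearts exceeded all saline hearts, with a log2 fold change of 1.28 with an SE of 0.31 (edgeR adjusted p = 0.0646; 1.39 and 0.0497 without scaling). Canx and Calr, the lectin chaperones that fold class I heavy chains, gave -0.58 and -0.40 (SE 0.13 and 0.17), with edgeR adjusted p of 0.055 and 0.205. Tap1 reads per Tap2 read were 4.39, 4.03 and 8.89 in ISO and 8.51, 7.46 and 16.9 in saline, with overlap (exact permutation p = 0.3).

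Immunoproteasome genes held 0 of 4 edgeR calls and 0 with an unadjusted p under 0.05, and DESeq2 and voom called none. Psme2, an activator subunit, and Psmb10, a catalytic subunit, gave -0.04 (SE 0.12) and 0.02 (SE 0.16), and without scaling Psme2 lay above 0. Among the constitutive catalytic subunits that they replace, edgeR, DESeq2 and voom called 0 of 3 and 1 had an unadjusted p under 0.05. Psmb6 and Psmb7 gave -0.14 (SE 0.10) and -0.10 (SE 0.11), and Psmb7 was 0.0027 without scaling. The ratio of Psmb8 to Psmb5 reads was 0.186, 0.215 and 0.534 in ISO and 0.191, 0.221 and 0.248 in saline, with only ISO replicate 3 outside the saline range by a wide margin (exact permutation p = 0.9). The Psmb9 to Psmb6 ratio differed by 0.50 and the Psmb10 to Psmb7 ratio by 0.12 on the log2 scale (exact permutation p = 0.2 and 0.8).

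Genes of interferon gamma signalling, the main inducer of Ciita, stood at a median of 0.04, with 0 of 10 called by edgeR, 1 with an unadjusted p under 0.05, 1 called by DESeq2 and 0 by voom. The kinase gene Jak1 gave -0.13 (SE 0.10). Costimulation genes had 0 of 4 called by each of the 3 tools, 0 with an unadjusted p under 0.05 and a median of -0.02. The adhesion gene Icam1 gave 0.09 (SE 0.13) and Cd274, an inhibitory ligand, gave -0.15 (SE 0.18).

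In the reference order of genes on rat chromosome 20 (RefSeq, GRCr8), 7 of the 10 genes lie between RT1-Da and RT1-DOa. Of 11 tested genes in that stretch 9 lay above 0 and 2 below, with a median log2 fold change of 0.34 and none called by edgeR. Over all tested genes the median was 0.02 and 2.97% were called. Groups did not overlap for 4 of the 11, against 28.8% of all tested genes. RT1-Ba lies between RT1-Db1 and RT1-Bb in this order, but its fold change of -2.25 was below both of theirs, -0.26 and 0.10. RT1-DOb and Tap2, which follow RT1-Bb, had the highest values of the stretch.

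**Figure D4:**
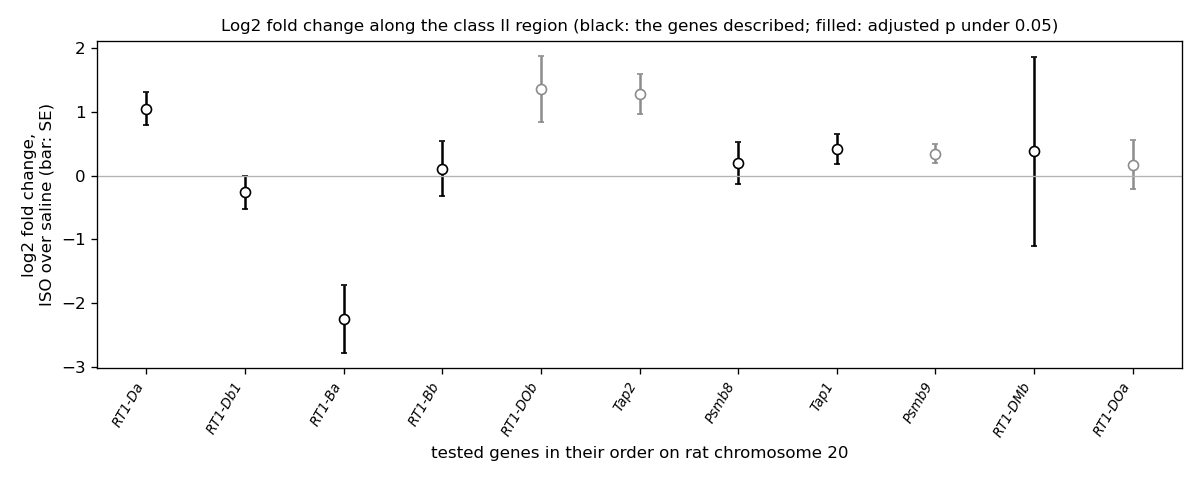
Log2 fold change of ISO over saline for the 11 tested genes of the class II region, in their order on rat chromosome 20 from left to right, with bars for the standard error; black points are the genes described and no point is filled because none passed an adjusted p of 0.05. RT1-Ba at -2.25 stands apart from its neighbours, and RT1-DMb has the widest bar.

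Markers of cells that carry class II molecules did not move together. Macrophage markers summed to 836 to 1873 CPM in ISO and 383 to 485 CPM in saline, without overlap and highest in ISO replicate 3, and 5 of 11 tested members rose by edgeR, against 1.47% of all tested genes, among them C1qa at 1.15 and Lyz2 at 2.44 (SE 0.14 and 0.46), with edgeR adjusted p of 0.0138 and 0.0334. For this list 10 of 11 had an unadjusted p under 0.05, DESeq2 called 9 and voom 4. None of these 5 edgeR calls held without any one of the saline hearts, 1 call was made without ISO replicate 1, 8 without ISO replicate 2 and 6 without ISO replicate 3. With the replicate number as a block 1 call was made. Over all genes edgeR made 409 calls in the main fit. It made 12 to 26 without a saline heart and 28 with the block. Without ISO replicates 1, 2 and 3 in turn it made 23, 838 and 295. Summed dendritic cell markers overlapped, with 38.9 to 47.1 CPM in ISO hearts against 35.3 to 43.1 CPM in saline hearts, and with 0 of 8 called by edgeR, DESeq2 or voom and 1 with an unadjusted p under 0.05. B cells were close to the counting floor, with at most 7 reads of Cd79b, 4 of Ms4a1 and 3 of Pax5 in any heart. The B cell list of 6 rows summed to 7.23 to 10.2 CPM in ISO and 21.0 to 28.6 CPM in saline, most of it Fcer2, which was lower in ISO with a log2 fold change of -1.57 (edgeR's adjusted p = 0.0138). The Fcer2 call was lost without ISO replicate 1, saline replicate 2 or saline replicate 3 (edgeR's adjusted p = 0.0592, 0.0527 and 0.0768) and with the replicate block (0.0529). The log2 fold change of Fcer2 in these fits was -1.60 to -1.45.

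T cell markers summed to 43.1 to 97.5 CPM in ISO and 37.3 to 45.1 CPM in saline, most of it Cd4, which rat macrophages also express, and NK cell markers to 13.5 to 14.0 CPM in ISO and 19.1 to 22.3 CPM in saline. For T cell markers edgeR called 0 of 6 and for NK cell markers 0 of 4. An unadjusted p under 0.05 was reached by 1 and 2 of them (22.9% of all tested genes). DESeq2 called 1 and 1 (9.73% of genes with an adjusted p) and voom none (2.39% of all). The part of these cells in the class II values was not tested, and in whole heart RNA more cells of a type and more RNA per cell cannot be told apart. Heart muscle markers summed to 28230 to 43151 CPM in ISO and 42471 to 53395 CPM in saline. By edgeR 1 of 6 fell, against 1.50% of all tested genes. An unadjusted p under 0.05 was reached by 3 (22.9% of all), DESeq2 called 3 (9.73%) and voom 1 (2.39%). The called gene was Actc1, cardiac actin, at -1.18 (edgeR's adjusted p = 0.0161). That call was not made without ISO replicate 1, without any one of the saline hearts or with the replicate block. Each of those fits called only 12 to 28 genes in all, against 409 in the main fit. The others were Myh6 at -0.57, Ryr2 at -0.46, Tnni3 at 0.0085, Tnnt2 at 0.07 and Myh7 at 1.01 on the log2 scale. Fibroblast markers summed to 5817 to 15164 CPM in ISO and 2073 to 2756 CPM in saline, most of it from collagen genes. Their sum, though not every single marker, was again highest in ISO replicate 3. By edgeR 2 of 5 rose, against 1.47% of all tested genes, and 0 to 3 were called with a library left out. An unadjusted p under 0.05 was reached by 5 (22.9% of all), DESeq2 called 4 (9.73%) and voom 2 (2.39%). ISO replicate 1 had 1128 reads of Myl7, an atrial gene, against at most 25 in any other heart. It also had 670 reads of Sln, 192 of Bmp10 and 157 of Mybphl, against at most 13, 2 and 2 elsewhere. The remaining gene of the atrial list was highest in ISO replicate 2. Without ISO replicate 1 RT1-Da stood at 1.29 and RT1-Ba at -2.50.

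The genes whose levels followed those of RT1-Ba most closely over the 6 hearts were Gcsh, Gfm1, Dnajc27, Ddc and Tcaim, with Pearson r from 0.981 to 0.994 on log2 CPM. For RT1-DMb they were Aldh9a1, Ubr4, Brwd1, Echdc2 and Zer1, with r from 0.975 to 0.993. For Cd74 they were Ppp1r10, Ap1s1, Rhob, Rspry1 and Ciapin1, with r from 0.961 to 0.968. They are the top 5 of 10312 genes in each case, so values this high over 6 hearts describe these libraries only.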

How the data were processed

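RNA of 6 rat hearts was sequenced, 3 from ISO and 3 from saline, and each library was grouped by its own label. Per the series description, the authors aligned 150 bp read pairs to the rat genome with HISAT2 and quantified genes as FPKM with featureCounts. The deposited table analysed here holds whole numbers that fit raw read counts and not FPKM. The sources used here give no version or strand setting. A mouse build, mm10, is listed in the submitters' processing notes, although gene identifiers are those of rat Ensembl. Libraries held 14880391 to 17299589 counts. The 1006 of 33889 rows without a gene name (0.981% to 1.32% of counts) were left out.

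edgeR 4.0.16 in R 4.3.3 (quasi-likelihood F test, TMM scaling, default filter, Benjamini-Hochberg adjustment over 13766 genes, threshold 0.05) was the test. The SE is the fold change over the square root of F. Log2 CPM used a prior count of 2. DESeq2 1.42.0, voom of limma 3.58.1, other scalings and filters, the series' thresholds on edgeR values (the series description names DESeq2) and each library left out were alternatives. The script was tested on simulated data. No 2 libraries of a group matched within sampling noise.

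The members and lists were chosen with earlier results of these data known. Named genes were the 10 members; up to 3 called genes per list or otherwise the 2 with most counts; and the 5 most correlated with Cd74 and with members spanning at least 8-fold. Any other gene was chosen after its values were seen. Some items of the lists are counted but not reported here by name. The series description gives 3 rats a group but no map of libraries to rats, so p-values measure the spread between libraries.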

Additional observations from a re-analysis of the deposited data

How the results depend on the processing

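The 10 genes had no edgeR call with other scalings, a filter of 1 CPM in 3 libraries, mitochondrial genes left out or unnamed rows kept (added after seeing the data), and none by voom. Summing rows that share a symbol left the counts of the 10 as they were, since their symbols occur once. The count was 2 without a filter, 2 with DESeq2 and 3 by the series' rule, and 0 to 1 with a library left out. Over all genes the 409 calls became 1329 with DESeq2, 1812 by the series' rule and 12 to 838 without one library. The split of 203 higher and 206 lower became 280 and 123 without scaling, which moved the median from 0.02 to 0.13, 710 and 619 with DESeq2, and 1193 and 619 by the series' rule.

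Replicate numbers did not pair the hearts: deviations of same-numbered hearts correlated at 0.09, -0.10 and 0.02. With the replicate number as a block 28 genes and none of the 10 were called. RT1-Bb then stood at -0.087 and RT1-DMb at -1.22.

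RT1-Bb, RT1-DMb and Psmb8 changed sign in some fits. With voom RT1-Bb was -0.15 and RT1-DMb -2.13. With a library left out, RT1-Bb ranged from -0.34 (without ISO replicate 2) to 0.52, RT1-DMb from -5.46 (without ISO replicate 2) to 1.00 and Psmb8 from -0.34 (without ISO replicate 3) to 0.44. Cd74 ranged from 0.22 to 0.42, B2m from -0.31 to -0.061 and Tap1 from 0.18 to 0.56, none of them called. Of 37 other named genes, 6 changed sign in 13 fits. Without scaling Psme2 was 0.069, Psmb7 0.0027 and Nlrc5 0.092. With a library left out, RT1-DOa ranged from -0.014 to 0.34, Psme2 from -0.12 to 0.041, Psmb10 from -0.083 to 0.14, Nlrc5 from -0.16 to 0.092 and Irf1 from -0.035 to 0.12. The cause of these changes was not tested, and fits with a library left out also have fewer samples. RT1-DMa and the DO chains are limited by few reads. RT1-DMb is limited by its spread between hearts, with few reads in some of them, and 3 rats a group limit every test.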
